A study of Mus musculus with 6 samples.

Results

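Proteasome genes were picked from the authors' deposited gene table of macrophage expression by symbol alone: each symbol that begins with Psm, followed by a letter from a to g and a number. The rule matched 50 of 19386 genes and used no measured value. Of the 50, 48 were sorted into 7 classes by role: 8 alpha subunits and 7 constitutive beta subunits of the core particle, 3 immunoproteasome beta subunits, 6 ATPases and 11 other subunits of the regulatory cap, 6 activators and inhibitors, and 7 assembly factors. The other 2 are Psmc3ip, which encodes a cofactor of meiotic recombination and is no proteasome subunit, and the pseudogene Psmb7-ps2. Counts of proteasome genes below include Psmc3ip where it was measured, unless the 7 classes are named. An adjusted p was given for 48 of the 50 symbols. It was missing for Psma8, an alpha subunit best known from the testis, with group means of 5.56 and 5.59 normalized counts per the authors' deposited table, and for Psmb7-ps2, with means of 0.251 and 0.195 in the same table.

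The libraries came from macrophages grown out of the bone marrow of wild-type mice of the C57BL/6 strain. In 3 libraries the marrow donors had been exposed to cigarette smoke and in 3 to room air. The sample descriptions label all 6 libraries ctl. Marrow cells freed of erythrocytes were cultured in medium with L929 supernatant, which supplies the growth factor of the macrophage lineage, and harvested on day 11. The age and sex of the mice and the dose and length of the exposure are not given in the sources used here. The protocols speak of marrow from each mouse without tying a library to an animal, so the p-values measure a spread between libraries that may be technical. The authors' expression fit also held 18 libraries not analysed here, whose spread entered its p-values.

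Expression was available as 1 mean of normalized counts for each group together with the authors' own comparison, so expression values of single libraries are not shown and the depth of each library is unknown. Macrophage genes dominated the marker check: Csf1r had group means of 10667 and 10637 normalized counts per the authors' deposited table for room air and cigarette smoke, and Lyz2 had 23168 and 24772. The 10 macrophage markers summed to 57436.5 and 58344 normalized counts per the authors' deposited table, with 1 of them, Spi1, called higher (adjusted p 0.00813, and 0.856 with the GC and length trend described below subtracted). Summed levels of the neutrophil (4 of 10 listed), B cell (4 of 8), erythroid (1 of 7) and dendritic cell (3 of 6) markers were at most 6.68 in either group in that deposited table, and Cd4, the single listed T cell marker, had 29.0 and 22.4. Stromal markers, 7 of 7 listed, had sums of 47.9 (room air) and 10.9 (cigarette smoke) per the authors' deposited table, with 0 of 6 tested called. The part of these other cells in the results was not tested, and in bulk RNA fewer cells of a type and less RNA per cell cannot be told apart.

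The proteasome degrades proteins that carry ubiquitin chains. Its core particle is a barrel of stacked rings: the outer rings of alpha subunits form a gate, and the inner rings of beta subunits hold the proteolytic sites, which belong to Psmb5, Psmb6 and Psmb7. The cap binds ubiquitin chains, removes them and threads the substrate into the core by ATP hydrolysis. In cells exposed to interferon, and at a basal level in immune cells such as macrophages, Psmb8, Psmb9 and Psmb10 take the places of Psmb5, Psmb6 and Psmb7 in newly built particles, which changes the peptides that reach MHC class I molecules.

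After smoke exposure, 11 of the 48 tested proteasome genes were higher and 0 were lower at an adjusted p under 0.05 in the authors' deposited table. Over the 7 classes, without Psmc3ip, it was 11 of 47 (23.4%). The members called higher make up 22.9% of the 48, beside 4.15 percent of all 12082 genes tested that were called higher and 3.53 percent called lower, 7.69 percent in all. The genes called were Psmb2, Psmb4, Psmb5 and Psmb6 of the core, the immunoproteasome gene Psmb10, the cap genes Psmc4, Psmc5, Psmd3 and Psmd8, the activator Psme3, and the assembly factor Psmd10. The differences were small. The median log2 fold change over the 48 was 0.18 in the authors' deposited table, beside -0.0029 over all genes tested, and 40 of the 48 values were above 0.

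**Figure D1:**
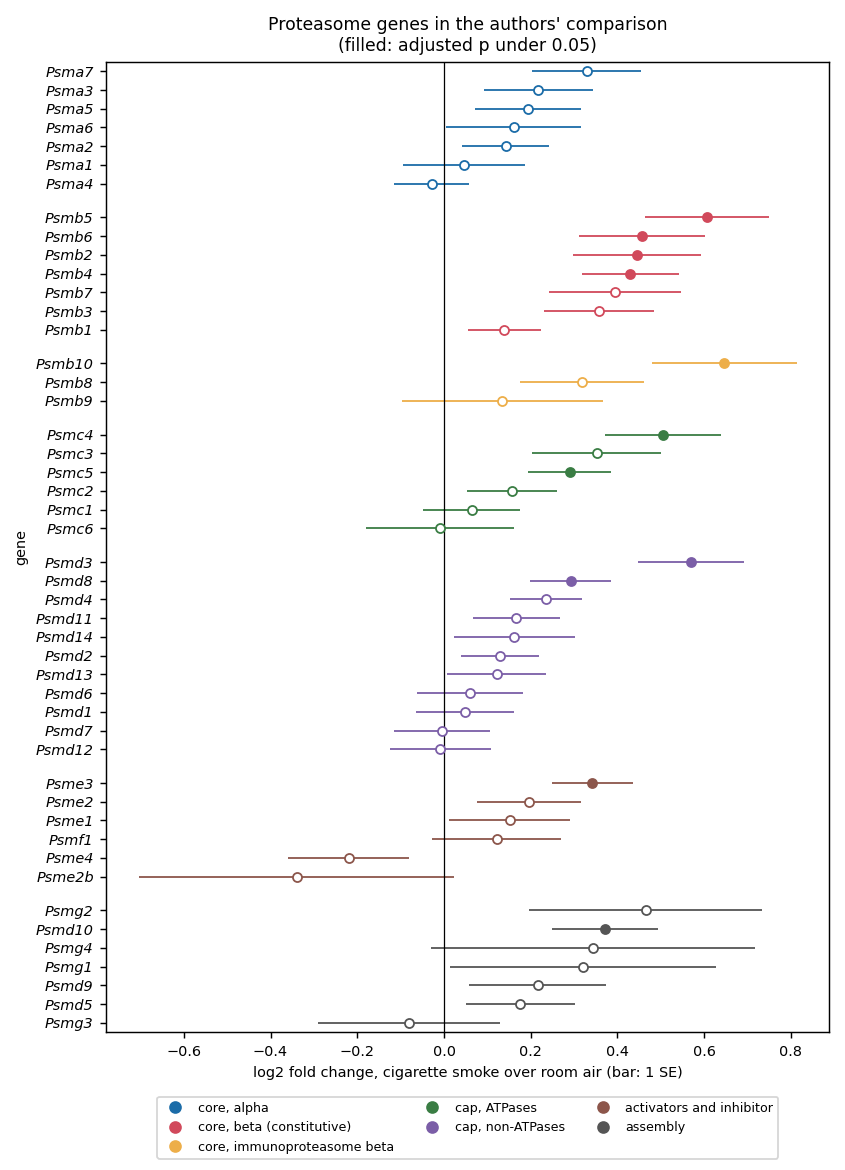
Log2 fold change (cigarette smoke over room air) of the 47 tested proteasome genes of the 7 classes in the authors' deposited table, with bars of 1 standard error and filled points for an adjusted p under 0.05. The 7 constitutive beta subunits all lie between 0.14 and 0.61, whereas the alpha subunits lie between -0.028 and 0.33.

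The fold changes of all genes varied with GC content and length of the transcript. Over 12071 genes, the deposited log2 fold changes had a Spearman correlation of 0.48 with GC content and of -0.45 with length of the longest transcript. Among the 48 tested proteasome genes the values were 0.43 and -0.26. Genes are not independent replicates, so no p is given. Proteasome transcripts are short, with a median of 1851 nucleotides against 3250 over all genes tested, and their median GC content was 49.7% against 49.4%. When the trend in GC content and length over all genes was subtracted from the deposited fold changes and p-values were recomputed, 1 of 48 proteasome genes was called higher and 0 lower, beside 0.820 percent of all genes called higher and 0.456 percent called lower. That gene was Psmb7, and 0 of the 11 genes called in the deposited table were among those called after the subtraction. All 11 had values above 0 after the subtraction, from 0.072 for Psmc5 to 0.39 for Psmd3. They had been picked as higher in the same fold changes, so this sign is no separate support. Psmd10 had a log2 fold change of 0.37 before and 0.36 after the subtraction (adjusted p 0.126), and Psme3 had 0.34 and 0.27 (adjusted p 0.126). With GC content alone in the trend 9 proteasome genes were called (1.60 percent of all genes), with length alone 1, Psmd3 (1.62 percent), and with GC content and length of the longest protein-coding transcript 1, Psma2 (0.746 percent). Without a trend, 15 were called at an adjusted p under 0.1 (6.65 percent of all), 6 under 0.01 (1.60 percent), 8 with no filter on low values (1.90 percent) and 11 with a mean of at least 10 (4.13 percent). The median log2 fold change of the 48 genes under the GC and length trend was 0.087. What makes the fold changes follow GC content and length was not tested.

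**Figure D2:**
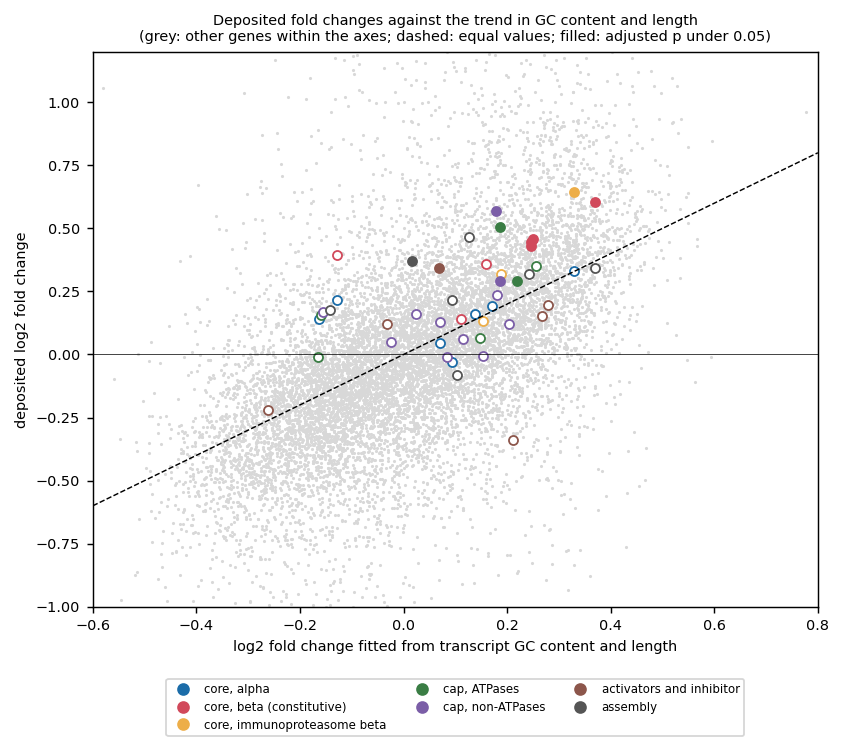
Log2 fold change of each gene in the authors' deposited table (vertical axis) against the log2 value fitted from GC content and length of its longest transcript (horizontal axis), with the dashed line at equal values. Psmb5, Psmb10 and Psmd3 lie above the line by 0.24, 0.32 and 0.39, and Psma7 lies on it.

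The constitutive beta subunits had the highest class median. All 7 had a log2 fold change above 0 and 4 of the 7 were called higher, and their median log2 fold change was 0.43 in the authors' deposited table. Psmb5, which carries the chymotrypsin-like site (ENSMUSG00000022193.7, chromosome 14, 54614119 to 54618022, minus strand, GRCm38), rose from 151 normalized counts in room air to 232 after smoke per the authors' deposited table. Its log2 fold change there was 0.61 (SE 0.14) with an adjusted p of 0.00206. Psmb6, which carries the caspase-like site (ENSMUSG00000018286.6, chromosome 11, 70525367 to 70527858, plus strand), increased from 326 to 446 normalized counts per the authors' deposited table (log2 fold change 0.46, SE 0.14, adjusted p 0.0297).

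Psmb4 and Psmb2, beta subunits without an active site, rose as well. Psmb4 went from 261 to 355 normalized counts per the authors' deposited table (log2 fold change 0.43, SE 0.11, adjusted p 0.00561), and Psmb2 from 326 to 449, with 0.45 (SE 0.15, adjusted p 0.0386). Psmb7, the gene of the trypsin-like subunit, had 235 and 314 normalized counts per the authors' deposited table (log2 fold change 0.39, SE 0.15, adjusted p 0.0860), just outside the threshold, as was Psmb3 at 0.36 (SE 0.13, adjusted p 0.0589). The lowest value of the class was that of Psmb1, 424 and 469 normalized counts per the authors' deposited table (log2 fold change 0.14, SE 0.08, adjusted p 0.329).

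With the GC and length trend subtracted, the median log2 fold change of the beta class fell from 0.43 to 0.20, and Psmb2, Psmb4, Psmb5 and Psmb6 lost their calls (adjusted p 0.701, 0.572, 0.573 and 0.670). All 7 values were still above 0. Psmb7 was then at 0.52 with an adjusted p of 0.0492. This value depends on which transcript describes the gene, since the longest transcript of Psmb7 has 2849 nucleotides and its longest protein-coding transcript 1160. With the longest protein-coding transcripts the value was 0.26 and the adjusted p 0.578. Psmb7 also overlaps the small gene Gm27634 on the same strand and Nek6 on the other, so its reads are uncertain. Reads are uncertain in the same way for Psmb5, Psmg3, Psma2 and Psmd12, which overlap Mir686, Gm26938, AW209491 and Gm11722 on the same strand. Without a stated strand setting this also holds for Psmb10 and Psmd3, which overlap Gm16156 and Gm12356 on the other strand. Psmb8 and Psme1 overlap Gm20496 and Emc9 on the other strand, and further proteasome genes not listed here have overlaps of both kinds.

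The alpha subunits gave 0 calls in 7 tested genes. Their median log2 fold change was 0.16 in the authors' deposited table and 0.022 with the trend subtracted. The highest was Psma7, with 241 and 301 normalized counts per the authors' deposited table (log2 fold change 0.33, SE 0.13, adjusted p 0.0803). The lowest was Psma4, with 459 and 451 normalized counts and a log2 fold change of -0.028 per the authors' deposited table (SE 0.09, adjusted p 0.897). Alpha and beta subunits are built into the particle in equal numbers. Summed over the class, the group means of the authors' deposited table were 1.10 times as high in cigarette smoke as in room air for the alpha subunits and 1.31 times for the constitutive beta subunits. The difference between the classes was not tested. The alpha transcripts had a median GC content of 45.0% and the beta transcripts 51.0%, and the fitted trend had a median of 0.093 and 0.25 for these classes.

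Of the 3 immunoproteasome subunits, Psmb10 rose and the others had no call. Psmb10 (ENSMUSG00000031897.9, chromosome 8, 105935735 to 105938444, minus strand) had group means of 197 and 306 normalized counts per the authors' deposited table, the largest fold change of all tested proteasome genes: log2 0.65 (SE 0.17), or 1.56-fold, with an adjusted p of 0.00544. With the GC and length trend subtracted, Psmb10 lost its call at 0.32 (adjusted p 0.479). It was then no longer the largest, with Psmb7 at 0.52. Psmb8 (chromosome 17, 34197721 to 34201454, plus strand) had 556 and 697 normalized counts per the authors' deposited table (log2 fold change 0.32, SE 0.14, adjusted p 0.154). Psmb9, which lies back to back with the peptide transporter gene Tap1 on chromosome 17 (34181987 to 34187764, minus strand) and overlaps it, had 173 and 193 normalized counts per the authors' deposited table (log2 fold change 0.13, SE 0.23, adjusted p 0.795).

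Each immunoproteasome gene was also set against the subunit it replaces, as a ratio of group means. Psmb8 had 3.69 times the normalized count of Psmb5 in room air and 3.00 times in cigarette smoke, computed from the authors' deposited table, a difference of -0.29 between the log2 fold changes. Psmb9 had 0.532 and 0.433 times the count of Psmb6 in the deposited means, a difference of -0.32. For Psmb10 the sign was the opposite, with 0.839 and 0.977 times the count of Psmb7 in the deposited means, a difference of 0.25. That sign did not hold under the GC and length trend: the Psmb10 and Psmb7 difference was -0.21 with the trend on the longest transcripts and 0.081 with that on protein-coding transcripts. The other differences stayed negative, at -0.11 and -0.20 for Psmb8 and Psmb5 and at -0.22 and -0.26 for Psmb9 and Psmb6. Per kilobase of the longest protein-coding transcript, Psmb8 stood at 2.04 and 1.66 times the level of Psmb5, Psmb9 at 0.314 and 0.256 times that of Psmb6, and Psmb10 at 0.742 and 0.864 times that of Psmb7. These ratios carry no error, because the deposited table holds 1 mean for each group, and the differences between the paired subunits were not tested.

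Among the 6 ATPases of the cap, which form the ring that unfolds substrates, 2 were called higher. Psmc4 (ENSMUSG00000030603.16, chromosome 7, 28041707 to 28050101, minus strand) rose from 322 to 462 normalized counts per the authors' deposited table (log2 fold change 0.50, SE 0.13, adjusted p 0.00694). Psmc5, which overlaps the small gene Gm23645, rose from 301 to 371 in the authors' deposited table, with 0.29 (SE 0.10, adjusted p 0.0380). The lowest member of the ring was Psmc6, with 399.5 and 397 normalized counts and a log2 fold change of -0.0095 per the authors' deposited table (SE 0.17, adjusted p 0.983).

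Among the 11 other cap subunits, 2 were called higher. Psmd3, a scaffold subunit of the lid (ENSMUSG00000017221.14, chromosome 11, 98682554 to 98695979, plus strand), had the lowest adjusted p of all proteasome genes, 0.000552, with 336 and 501 normalized counts per the authors' deposited table (log2 fold change 0.57, SE 0.12). Psmd8, another lid subunit, rose from 1727 to 2114.5 normalized counts per the authors' deposited table, with 0.29 (SE 0.09, adjusted p 0.0303). Psmd4, a ubiquitin receptor of the cap, lay just outside the threshold at 371 and 443 normalized counts per the authors' deposited table, with 0.24 (SE 0.08, adjusted p 0.0574). At the low end, Psmd12 had 383 normalized counts in both groups of the authors' deposited table and a log2 fold change of -0.0083 (SE 0.12, adjusted p 0.980). Subunits of the same lid ranged from Psmd3 to Psmd12 in fold change. With the trend subtracted, the median was 0.13 over the ATPases and 0.058 over the other cap subunits, and none of the 4 called cap genes kept its call. Psmc4 was then at 0.32 (adjusted p 0.278), Psmc5 at 0.072 (adjusted p 0.884), Psmd3 at 0.39 (adjusted p 0.0772) and Psmd8 at 0.11 (adjusted p 0.775).

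Of the activators, only Psme3 passed the threshold in the deposited table. Psme3 encodes the nuclear activator that opens the core for substrates without ubiquitin. It rose from 456 to 577 normalized counts per the authors' deposited table (log2 fold change 0.34, SE 0.09, adjusted p 0.00921). Psme1 and Psme2 encode the interferon-inducible activator of the cytosol. Psme1 had 582 and 644 normalized counts and a log2 fold change of 0.15 per the authors' deposited table (SE 0.14, adjusted p 0.568), and Psme2 had 433 and 493 with 0.20 (SE 0.12, adjusted p 0.329).

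Psme4, a large single-chain activator linked to histone degradation, had 657 and 563 normalized counts per the authors' deposited table (log2 fold change -0.22, SE 0.14, adjusted p 0.360). Its transcript is the longest of the tested proteasome genes, 6491 nucleotides, and the fitted trend alone was -0.26. Psmf1, the inhibitor of the core, had 123 and 133 normalized counts and a log2 fold change of 0.12 per the authors' deposited table (SE 0.15, adjusted p 0.689). Psme2b, a close copy of Psme2 that overlaps 2 other genes on its strand, had 112 and 88.8 normalized counts and a log2 fold change of -0.34 per the authors' deposited table (SE 0.36, adjusted p 0.636), and its reads are uncertain.

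The assembly factors were the class with the lowest levels. Psmd10, a chaperone of the cap base also known as gankyrin, rose from 99.7 to 124 normalized counts per the authors' deposited table (log2 fold change 0.37, SE 0.12, adjusted p 0.0371). The other chaperones of the cap base had no call: Psmd9 had 109 and 130 normalized counts and a log2 fold change of 0.22 per the authors' deposited table (SE 0.16, adjusted p 0.439), and Psmd5 had 223 and 254 with 0.18 (SE 0.12, adjusted p 0.422). The 4 chaperones of the core were measured with wide errors. Psmg2 had 47.3 and 67.9 normalized counts and a log2 fold change of 0.47 per the authors' deposited table (SE 0.27, adjusted p 0.298), and its partner Psmg1 had 37.5 and 47.5 with 0.32 (SE 0.31, adjusted p 0.585). Psmg3 had 40.0 and 37.9 normalized counts and a log2 fold change of -0.081 per the authors' deposited table (SE 0.21, adjusted p 0.876), and its partner Psmg4 had 17.3 and 22.4 with 0.34 (SE 0.37, adjusted p 0.643).

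Levels of different genes were compared per kilobase of the longest protein-coding transcript. In room air the median over the tested proteasome genes was 203 normalized counts per kilobase, beside 52.7 over all tested genes. Psmd8 was highest at 871, and the core subunits, alpha and constitutive beta, ranged from 98.9 for Psma3 to 409 for Psmb6. The 7 assembly factors ranged from 31.1 for Psmg4 to 69.7 for Psmd10, all below the lowest tested core subunit, and the inhibitor Psmf1 had 32.3. Psme1 and Psme2, whose products form a ring together, had 523 and 450. In cigarette smoke the assembly factors ranged from 40.3 for Psmg4 to 86.9 for Psmd10, again below the lowest core subunit, Psma3 at 115. Neighbours in the plot of levels by gene cannot be ranked, because the group means carry no error.

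**Figure D3:**
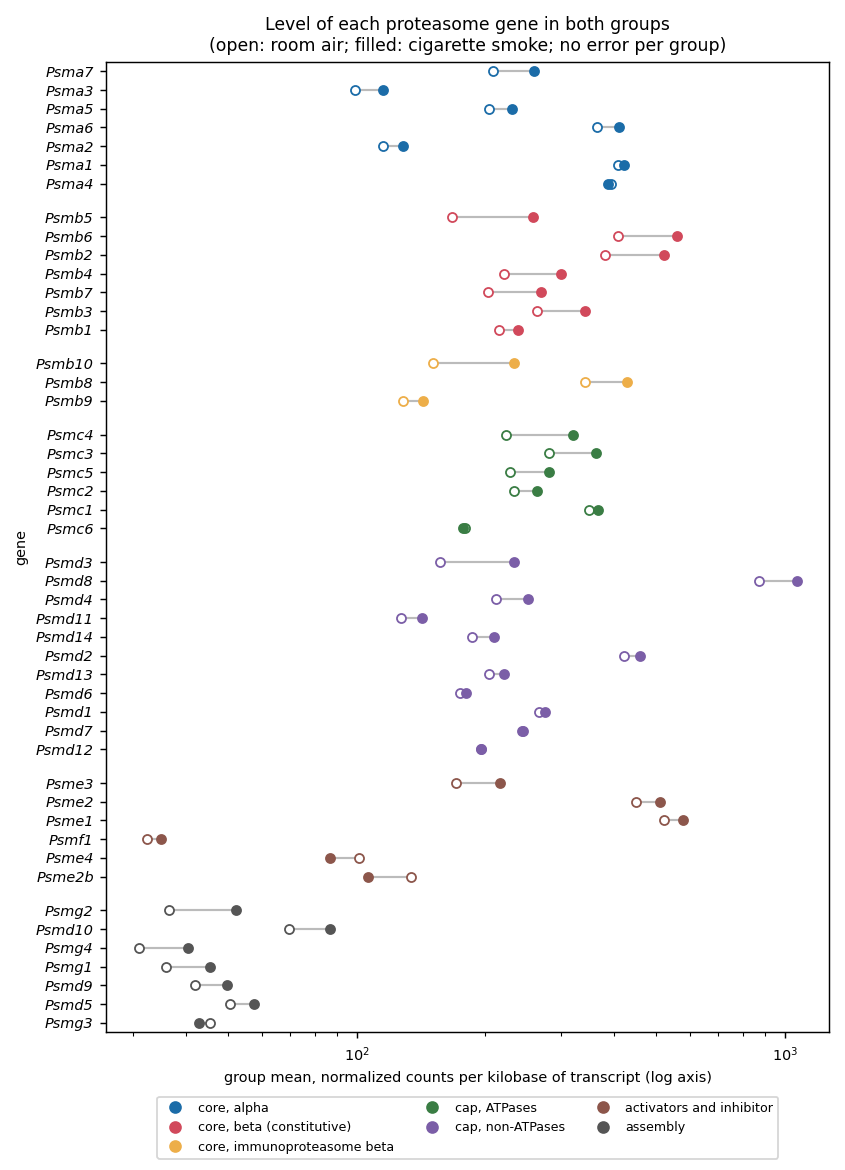
Group mean of each tested proteasome gene of the 7 classes in normalized counts per kilobase of the longest protein-coding transcript, on a log axis, computed from the authors' deposited table (open points room air, filled points cigarette smoke). The assembly factors lie between 31.1 and 69.7 in room air, and Psmd8 stands highest at 871 in room air and 1066 in cigarette smoke.

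Genes that work with the proteasome but fall outside the symbol rule were read from 5 lists, beside the 4.15 percent of all genes called higher and 3.53 percent called lower. Of 11 tested partners of the particle, 1 was called higher and 0 lower. This was Adrm1, a ubiquitin receptor of the cap, with 199 and 297 normalized counts per the authors' deposited table (log2 fold change 0.56, SE 0.13) and an adjusted p of 0.00126, and it kept its call with the trend subtracted (adjusted p 0.0312). Pomp, the chaperone of core maturation, had a deposited log2 fold change of 0.19 (SE 0.12, adjusted p 0.348). The median of the partner list was -0.021 in the deposited table, with 5 of 11 values above 0. With the trend subtracted it was 0.12, with 8 of 11 above 0. Of 14 tested genes of ubiquitin and its delivery, 0 were called in either direction, with a median of 0.12 in the deposited table.

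The list of genes in the transcriptional control of proteasome genes gave 0 calls among 12 tested members, with a median of 0.027 in the deposited table. Nfe2l1, the factor that raises proteasome genes when the particle is inhibited, had 995 and 1039 normalized counts and a log2 fold change of 0.062 per the authors' deposited table (SE 0.11, adjusted p 0.812). Nfe2l2, the master factor of the oxidative stress response, had 2616 and 2292 with -0.19 (SE 0.12, adjusted p 0.368) in that deposited table. Among 12 genes of class I peptide loading and interferon control, 0 were called higher and 1 lower, the chaperone calnexin, Canx, at -0.29 per the authors' deposited table (SE 0.08, adjusted p 0.0102), and -0.092 (adjusted p 0.767) with the trend subtracted. Tap1 had a deposited log2 fold change of 0.15 (SE 0.21, adjusted p 0.746). Of 7 peptidases that trim proteasome products, 1 was called higher and 1 lower in the deposited table. The authors' deposited table put Thop1 at 0.65 (SE 0.21, adjusted p 0.0334) and Lnpep at -0.79 (SE 0.14, adjusted p 3.8e-05). With the trend subtracted neither kept its call, at 0.37 (adjusted p 0.531) and -0.34 (adjusted p 0.288).

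Promoter sequences of the RefSeq assembly GRCm38.p6 were at hand for 41 of the tested proteasome genes, with Psmc3ip counted among them. The 250 bases before the start of each RefSeq promoter entry were searched on both strands for 4 motifs. The letters TGACNNNGC, the core of the antioxidant response element that Nfe2l1 and Nfe2l2 bind, were found in 5 of 41 genes (12.2%), beside 14.4% of 8341 tested genes with a promoter sequence. Of the 9 called genes with a promoter sequence, 2 held these letters, Psmb5 and Psmb6, which both carry proteolytic sites. Among the uncalled genes Psmd9, Psmc6 and Psmd12 held them. All 5 stretches are shown, with the motif in capitals, because the proteasome is a known target of these factors. In Psmb5 (chr14:54618019-54618057, minus strand) the motif begins 47 bases before the RefSeq start, in Psmb6 (chr11:70525333-70525356, plus strand) 9 bases before it, and in Psmd9 (chr5:123228144-123228182, plus strand) 31 bases before it. The Psmd9 stretch lies inside the gene as GENCODE places it, from 123169413 to 123250131. In Psmc6 (chr14:45329582-45329620, plus strand) and Psmd12 (chr11:107479278-107479304, plus strand) the letters are on the opposite strand.
Psmb5: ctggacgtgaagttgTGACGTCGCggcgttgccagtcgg
Psmb6: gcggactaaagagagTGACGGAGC
Psmd9: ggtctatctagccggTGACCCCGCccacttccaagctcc
Psmc6: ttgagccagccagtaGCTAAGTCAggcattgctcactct
Psmd12: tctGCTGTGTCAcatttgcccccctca

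TTCNNNGAA, the gamma interferon activated site, was in 2 of 41 proteasome genes (4.88%) against 7.29% of all, and in 0 of the 9 called. One of the 2 was Psmb8, where it begins 97 bases before the RefSeq start (chr17:34198083-34198121, plus strand, motif in capitals). That stretch lies inside the gene as GENCODE places it, from 34197721 on. It is shown because Psmb8 is an interferon-inducible subunit. The core of the interferon stimulated response element (GAAA, any 2 bases, GAAA) was in 3 of 41 (7.32%) against 3.52%, namely Psmb3, Psmd4 and Psmd9, and in 0 of the 9 called. The NF-Y box CCAAT was in 14 of 41 (34.1%), Psmc3ip among them, against 40.6%, with 2 among the 9 called, Psmd10 and Psme3. Each match describes letters only and is no measured site.
Psmb8: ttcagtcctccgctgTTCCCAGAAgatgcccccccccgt

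Splicing was measured for each library as a percent inclusion by JuncBASE, a program that reads alternative events from splice junctions. It listed 32 events in 14 proteasome genes, and 28 of these had a value in all 6 libraries, while 4 had none in cigarette smoke replicate 1. In a limma fit of log2 odds over all 10376 events with Benjamini-Hochberg adjustment, 0 of the 32 reached an adjusted p under 0.05, beside 0.00 percent of all events, and the lowest adjusted p was 0.476. At an unadjusted p under 0.05 there were 0 of 32, beside 10.8 percent of all events. In 5 of the 28 events with all 6 values the groups did not overlap (17.9%), beside 23.1 percent of all such events.

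The 3 events with the lowest p lay in Psmd5, Psme1 and Psmd3. For an unannotated acceptor of Psmd5 the inclusion was 92.86%, 92.59% and 100% in room air, against 100% in each of the 3 cigarette smoke libraries (limma adjusted p 0.476). The room air library at 100% lies within the other group, so the groups overlap. Retention of an intron of Psme1 (chromosome 14, 55581139 to 55581300) was 2.74%, 8.33% and 5.13% in room air and 0%, 0% and 4.94% in cigarette smoke (limma adjusted p 0.489). Retention of an intron of Psmd3 (chromosome 11, 98694294 to 98695362) was 6.67%, 2.7% and 0% in room air, against 0% in every cigarette smoke library (limma adjusted p 0.491). Both introns overlap between the groups as well.

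Retention was below 10% on average in each of the 9 introns of proteasome genes with a value in all 6 libraries. Another intron, in Psmd11 (chromosome 11, 80471595 to 80471709), had 14.81%, 15.15% and 15.79% in room air and 11.76% and 20% in cigarette smoke replicates 2 and 3, with no value in replicate 1. Over the 9 introns with all 6 values, in 6 genes, the mean retention was 4.24%, 5.87% and 4.14% in the room air libraries and 0.202%, 2.33% and 4.94% in the cigarette smoke libraries. The group means were 4.75% ± 0.975 and 2.49% ± 2.37 (SD, n = 3 each), a difference of -2.26 percentage points. Cigarette smoke replicate 1 stood lowest and replicate 3 lay inside the room air range, so the groups overlap. Without cigarette smoke replicate 1 the difference was -1.12 points. Over the 1983 retained introns of all other genes the group means were 15.7% ± 0.978 and 11.5% ± 1.27 (SD, n = 3 each), a difference of -4.24 points. The mean was lower after smoke in 7 of the 9 proteasome introns and higher in 2, beside 92.5 percent of all retained introns that were lower. Every smoke value lay below every room air value in 2 of the 9, beside 38.7 percent of all.

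These 2 introns belong to Psmb9 and Psma3 and were chosen after their values were seen. The first intron of Psmb9 (chromosome 17, 34185798 to 34187249) was retained at 6.67%, 6.25% and 5.56% in room air and at 0%, 3.33% and 5% in cigarette smoke. For the intron of Psma3 (chromosome 12, 70984595 to 70984671) the levels were 8.33%, 4.55% and 4.03% in room air and 0%, 2.99% and 3.75% in cigarette smoke. The gaps between the groups are small beside their spread, and the limma adjusted p values were 0.526 and 0.524. In the intron of Psmb6 at 70525953 to 70526293 on chromosome 11, room air gave 2.7%, 7.02% and 5.93% and cigarette smoke 1.82%, 1.61% and 3.7% (limma adjusted p 0.537).

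**Figure D4:**
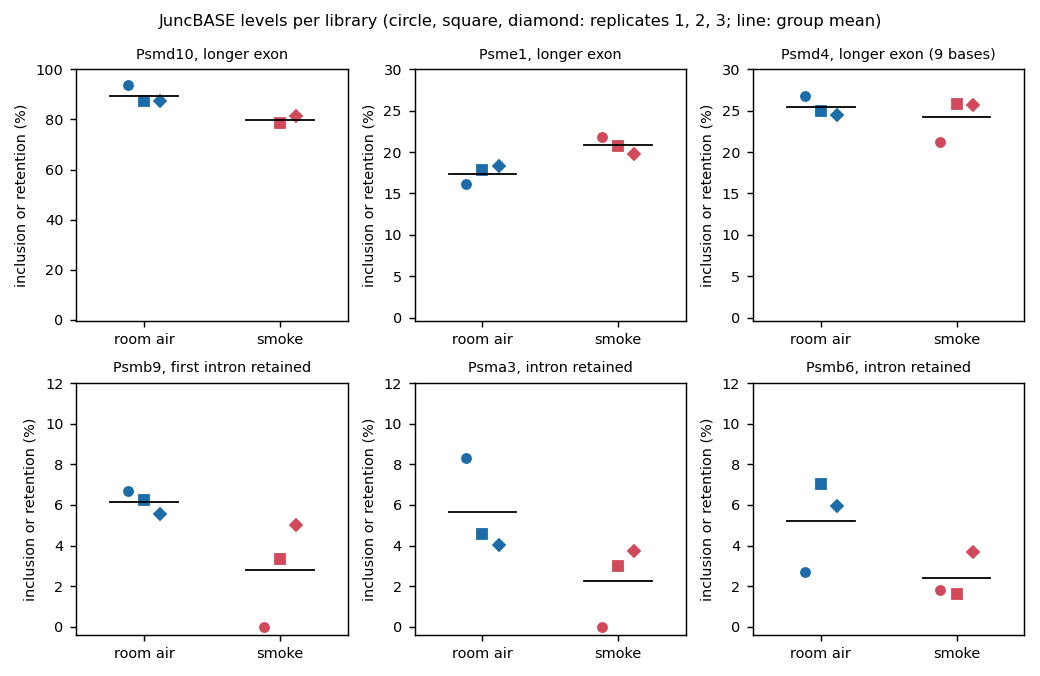
JuncBASE inclusion (upper panels: Psmd10, Psme1, Psmd4) and intron retention (lower panels: Psmb9, Psma3, Psmb6) in percent for each library, with circles, squares and diamonds for replicates 1, 2 and 3 and lines at the group means. Psmd10 has no value in cigarette smoke replicate 1, and the retention of Psmb9 and Psma3 is 0% there.

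Alternative exon ends in Psmd10, Psme1 and Psmd4 are shown because they change what the transcript encodes, and they were chosen after their values were seen. The sequences come from the GENCODE M21 transcripts on GRCm38, with the alternative segment in capitals and the 10 flanking bases of the transcript on each side in lower case. In Psmd10 a segment of 79 bases (chrX:140952147-140952225, minus strand) separates the transcript of 231 residues from one of 151. In Psmd4 a segment of 9 bases (chr3:95033909-95033917, minus strand) separates proteins of 379 and 376 residues. In Psme1 a segment of 48 bases (chr14:55580282-55580329, plus strand) occurs in 2 annotated transcripts, and no annotated coding sequence spans all of it. In the frame of the coding transcript it holds 1 stop codon, at codon 10 of the segment.
Psmd10: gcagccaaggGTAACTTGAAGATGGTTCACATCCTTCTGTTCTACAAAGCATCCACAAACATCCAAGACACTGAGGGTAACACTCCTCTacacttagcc
Psmd4: gggactgaagGTGAAAGAGactcggatga
Psme1: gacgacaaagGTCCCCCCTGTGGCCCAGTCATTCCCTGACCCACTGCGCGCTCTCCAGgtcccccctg

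Inclusion of the 79 bases of Psmd10 was 93.75%, 87.18% and 87.18% in room air and 78.57% and 81.25% in cigarette smoke replicates 2 and 3, with no value in replicate 1. The measured groups do not overlap, the limma adjusted p was 0.526, and the authors' deposited table gave a raw p of 0.0356 and a corrected p of 0.804. A second listing of the same 79 bases, as an alternative donor, had 90.48%, 82.14% and 82.14% in room air and 75% and 76% in cigarette smoke replicates 2 and 3, with a limma adjusted p of 0.556. For that listing the raw p was 0.0729 and the corrected p 0.523 in the authors' deposited table. Inclusion of the 48 bases of Psme1 was 16.08%, 17.79% and 18.28% in room air and 21.88%, 20.79% and 19.71% in cigarette smoke. Every smoke library lay above every room air library, with a limma adjusted p of 0.735 and, in the authors' deposited table, a raw p of 0.0205 and a corrected p of 0.838. For the 9 bases of Psmd4 the levels were 26.79%, 25% and 24.49% in room air and 21.21%, 25.81% and 25.66% in cigarette smoke (limma adjusted p 0.929). These overlap. In a second listing of the same 9 bases, typed as an alternative donor, the levels were 18%, 15.29% and 15.91% in room air and 10.34%, 14.81% and 15.04% in cigarette smoke. There every smoke value lay below every room air value, with a limma adjusted p of 0.723.

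A second program, rMATS, was used by the authors on retained introns, with reads inside the intron counted as well as junctions. Its table names its sample sets 1 and 2 without saying which is which, so no direction with smoke is given. It listed 32 introns in 18 proteasome genes, of which 5, in 4 genes, had a false discovery rate under 0.05 (15.6%), beside 14.5 percent of all 3887 introns. All 5 were higher in set 1, as were 95.0% of all introns called (13.8 percent of all introns tested), and the differences were 1.2 to 3 percentage points in the authors' deposited table. The intron of Psmb8 at 34200271 to 34200710 on chromosome 17 differed by 1.5 points in the authors' deposited table (false discovery rate 0.00905). Psmb6 had 2 such introns, at 70526674 to 70527178 and 70525953 to 70526293 on chromosome 11, with 2.2 and 2.3 points (false discovery rates 0.0146 and 0.0242) in the authors' deposited table.

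The intron of Psmd3 at 98690654 to 98690915 on chromosome 11 differed by 3 points (false discovery rate 0.0182), and that of Psmd7 at 107581320 to 107582381 on chromosome 8 by 1.2 points (false discovery rate 0.0188), both in the authors' deposited table. Psmb6 and Psmd3 were also called higher in expression, and Psmb8 and Psmd7 were not. JuncBASE and rMATS had 3 proteasome introns in common, with values in different units of comparison. In Psmb6 the second of the introns above was 2.3 points higher in set 1 in the authors' deposited table, and by JuncBASE it was -2.84 points in cigarette smoke relative to room air. The other two were in Psmb9 and Psmd11, at 3.9 and -1.7 points between the sets in the authors' deposited table (false discovery rates 0.278 and 1) and 1.60 and 0.63 points by JuncBASE.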

How the data were processed

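Macrophage RNA was sequenced in 6 libraries, grouped by sample title. STAR, DESeq2, SAMtools 1.9, bedtools 2.27.1 and the build mm10 are named in the submitters' processing notes, without their order. Counting program and strand setting are not given in the sources used here. Per the file headers, the authors' gene table holds signal values (means of size-factor-normalized counts per group), log2 fold changes with standard errors, a Wald score, and p-values raw and adjusted. Headers also show that the fit held 24 libraries, 18 of which are not analysed here, so their spread entered the standard errors. Since counts of single libraries were not used here, the authors' comparison is described and the fallback laid down in the design was used. The deposited log2 fold changes tracked the log2 ratios of group means (correlation 0.999 in 9020 genes whose mean reached 50).

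Percent inclusion per event and library, medians and p-values were deposited by the authors as JuncBASE output, with the difference of medians as an other quantity. The inclusion level p was turned into log2((p + 1)/(100 - p + 1)) and fitted with limma 3.58.1 in R 4.3.3 over all 10376 events, with Benjamini-Hochberg adjustment. Read numbers behind the levels are unknown, so no coverage minimum or interval is given. The authors' deposited rMATS table gave p-values, false discovery rates and differences of levels as fractions, printed as percentage points. Its 6 columns of per-sample values were not used.

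Positions, lengths and GC content came from GENCODE M21, where all 50 symbols were matched. Of 6001 known JuncBASE events, 98.6% had annotated introns. The GC and length trend came from a weighted least squares fit (statsmodels 0.14.6) on 2 natural splines with 4 degrees of freedom, and the procedure was tested on simulated data. Genes are named if called, if highest or lowest of a class, or if they are immunoproteasome subunits with their counterparts, activators, the inhibitor or assembly factors, and events if among the 3 with the lowest p or past the rMATS threshold. Psmb3 and Psmd4, just outside the threshold, and the other splicing events shown were chosen after their values were seen. Psmb11 was not analysed here. The members, lists and rules were chosen with earlier results of these data known. The alternatives tried were other thresholds, filters, scalings, trends, pseudocounts, a replicate block and leaving out each library. Trends on GC content alone, on length alone and on protein-coding transcripts were added after seeing the data.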

Additional observations from a re-analysis of the deposited data

How the results depend on the processing

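The 11 proteasome genes called higher stayed 11 with a mean of at least 10, and became 15 at an adjusted p under 0.1, 6 under 0.01 and 8 without a filter on low values, where Psmb2, Psmc5 and Psmd10 lost their call (adjusted p 0.0609, 0.0598 and 0.0585). The trend in GC content and length left 1 gene, Psmb7, and the same trend on protein-coding transcripts also left 1, Psma2, neither among the 11, although some fold changes hardly moved (Psmd10 0.37 as deposited, 0.36 and 0.39 under these trends; Psme3 0.34, 0.27 and 0.31). Length alone left 1, Psmd3, and GC content alone left 9, of which 4 were among the 11. The GC and length trend took the class medians to 0.022 for alpha, 0.20 for beta and 0.13 for immunoproteasome subunits, and to -0.020 for activators and inhibitor. It turned the sign of 10 uncalled genes: Psma1 -0.023, Psmb9 -0.018, Psmc1 -0.083, Psmc6 0.15, Psmd13 -0.083, Psmd6 -0.055, Psme1 -0.12, Psme2 -0.083, Psme4 0.043 and Psmg4 -0.025.

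In limma, 0 member events passed the adjusted threshold in any setting, and leaving out each library gave 0 to 0. Without cigarette smoke replicate 3, 1131 of all 10376 events passed, and the lowest adjusted p of a member was 0.0507. At an unadjusted p under 0.05, 2 passed on untransformed percent and 0 to 3 when each library was left out. Same-numbered libraries had correlations of 0.018, -0.040 and -0.089 over 5933 events, and those with unlike numbers -0.072 to 0.13. These values show no pairing by number, but with 3 libraries a group they cannot exclude it. The replicate block gave 0 events. The retention difference ranged from -3.48 to -1.12 points when each library was left out, and a minimum level of 10% left no member intron among those with all 6 values. By rMATS, 1 intron passed a false discovery rate under 0.01 and 0 a difference of at least 10 points. The depth behind the splicing levels is unknown.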
